A study of Mus musculus with 2 samples.

Results

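Genes of the interferon response and of antigen presentation were described in the mouse lens at postnatal day 60 (P60), in the young adult, and at postnatal day 7 (P7), when the lens grows fast. A list of 44 genes was matched to the array by gene symbol. A gene was used when at least 1 probe set, a group of short probes for a transcript, carried that symbol alone, and 42 of the 44 had one, out of 18194 such genes in all. Isg15 had only a probe set shared with another gene, and Ifi44 was not used here because no probe set was named for it. Where a gene had several probe sets, the one brightest on average (mean of the P60 and P7 log2 intensities) stood for it, and the ratios of its other measured probe sets are given beside it where it has any.

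Both groups were lenses of wild-type mice of the strain labelled C57/BL6, 60 days old in the P60 group and 7 days old in the P7 group. The lenses of each age were pooled and their RNA was hybridised to 1 array, so no value has a replicate, no test between the ages is possible and all differences are given by size. The sources used here do not state how many animals or eyes entered a pool, or their sex. Xist, transcribed from the inactive X chromosome of female cells, had an intensity of 131 at P60 and 8002 at P7, so the sex make-up of the pools and age cannot be told apart. RNA of a lens mixes epithelium, fibre cells and any vessel or immune cell that came with it, so fewer cells of a type and less RNA per cell cannot be told apart.

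Interferons are secreted proteins that warn cells of viral nucleic acid. Promoters of genes that type I and type III interferons induce often hold the interferon-stimulated response element (ISRE), which IRF9 helps to bind, and those of genes that interferon-gamma induces often hold the gamma-activated site (GAS). The induced genes encode sensors of viral RNA, antiviral effectors, GTPases that attack vacuoles of intracellular pathogens, and the proteasome subunits, transporters and chaperones that load peptides onto MHC class I. The lens loses its blood vessels after birth and lies inside an eye whose immune responses are restrained.

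Many promoters of these genes hold the element that the group is known for. The genes were listed for their known part in the response, so the shares given next describe the list and not the lens. In the RefSeq promoter set (GRCm38.p6), 36 of the 44 genes had an entry of 300 bases, 250 before and 50 after a transcription start. Both strands were searched for the ISRE core, taken as GAAA, any 2 bases and GAAA again, and for the GAS core TTCNNNGAA, which reads the same on both strands. The ISRE core was found in 19 of the 36 genes (52.8%), against 1079 of all 27025 genes in the set (3.99%). The GAS core was found in 11 of the 36 (30.6%), against 2582 of 27025 (9.55%). A match is a description of letters, and the 2 motifs can overlap.

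The 250 bases before the start are shown for 3 genes that differed between the ages, Gbp2 and Tapbp, which were higher at P60, and Rsad2, which was lower. Capitals mark an ISRE core, at position -59 from the start in Gbp2 and -120 in Rsad2, and no core was found in the window of Tapbp. The positions on GRCm38.p6 are chr3:142620413-142620662 (plus strand) for Gbp2, chr12:26456453-26456702 (minus strand) for Rsad2 and chr17:33919228-33919477 (plus strand) for Tapbp.
Gbp2: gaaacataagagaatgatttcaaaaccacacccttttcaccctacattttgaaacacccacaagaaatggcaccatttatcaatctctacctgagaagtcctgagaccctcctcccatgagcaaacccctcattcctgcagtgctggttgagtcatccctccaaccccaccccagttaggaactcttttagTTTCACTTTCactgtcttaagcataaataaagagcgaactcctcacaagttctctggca
Rsad2: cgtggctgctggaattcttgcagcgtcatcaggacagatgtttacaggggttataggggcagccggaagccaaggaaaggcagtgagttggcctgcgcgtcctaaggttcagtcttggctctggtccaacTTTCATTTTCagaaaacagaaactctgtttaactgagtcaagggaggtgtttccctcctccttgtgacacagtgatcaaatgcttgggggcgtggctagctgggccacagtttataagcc
Tapbp: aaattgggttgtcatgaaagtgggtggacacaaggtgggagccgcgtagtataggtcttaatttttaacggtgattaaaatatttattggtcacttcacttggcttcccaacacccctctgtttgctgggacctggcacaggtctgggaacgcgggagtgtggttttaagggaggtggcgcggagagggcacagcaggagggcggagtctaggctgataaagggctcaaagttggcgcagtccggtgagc

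Short windows around the core, again in capitals, are shown for other measured genes whose first match lies before the start, so that the letters between and around the copies of GAAA can be compared. Read on the strand that shows GAAA, the letters GAAACTGAAA were the most frequent core among the measured genes and occurred in 7 of 16 (B2m, Bst2, Gbp3, Ifit1, Ifit3, Igtp and Oas1a), and GAAAGTGAAA occurred in 3 (Gbp2, Ifit1 and Ifit3). Ifit1 and Ifit3 have a second match outside the window shown, which holds the GAAACTGAAA core. Ddx58, Ifih1, Eif2ak2 and Ifitm3 hold other cores, after the start in the first match, and are not shown. The first match in each window begins at position -104 in Ifit1, -156 in Ifit3, -46 in Ifitm2, -20 in Oas1a, -130 in Bst2, -36 in Trim30a, -45 in Gbp3, -34 in Igtp, -30 in Irgm1 and -139 in B2m. Oas1a, Bst2, Gbp3 and Irgm1 each hold 2 overlapping matches.
Ifit1, chr19:34640777-34640802, plus strand: ggcttcagTTTCACTTTCcagtctca
Ifit3, chr19:34583365-34583390, plus strand: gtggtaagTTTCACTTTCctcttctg
Ifitm2, chr7:140955990-140956015, minus strand: accaacagGAAAAGGAAAttgctaga
Oas1a, chr5:120907523-120907552, minus strand: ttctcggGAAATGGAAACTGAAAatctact
Bst2, chr8:71537580-71537609, minus strand: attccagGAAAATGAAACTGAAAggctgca
Trim30a, chr7:104465212-104465237, minus strand: ttctttagTTTCTTTTTCtcagttcc
Gbp3, chr3:142559992-142560021, plus strand: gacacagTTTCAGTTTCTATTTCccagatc
Igtp, chr11:58199514-58199539, plus strand: taggaactGAAACTGAAAgctgttcg
Irgm1, chr11:48871428-48871457, minus strand: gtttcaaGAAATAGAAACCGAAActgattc
B2m, chr2:122147540-122147565, plus strand: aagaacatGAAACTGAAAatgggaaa

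Most of the group read modestly higher in the adult lens, with a few large differences in both directions. Ifi27, Gbp2, Ifit2, Tapbp and Oas2 had the highest ratios, and Rsad2 and Nlrc5 had the lowest. Values are signal intensities in arbitrary units, and the floor, under which a value was not taken as measured, was 103.9, the median over all probe sets and both ages. Of the 42 genes, 36 exceeded the floor on at least 1 array, 21 on both, 10 at P60 only and 5 at P7 only. A gene above the floor on 1 array only can differ in just 1 direction, so the counts describe the measured genes and not the whole list. Most were dim, with 26 of the 36 under 4.93 times the floor on their brighter array.

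**Figure D1:**
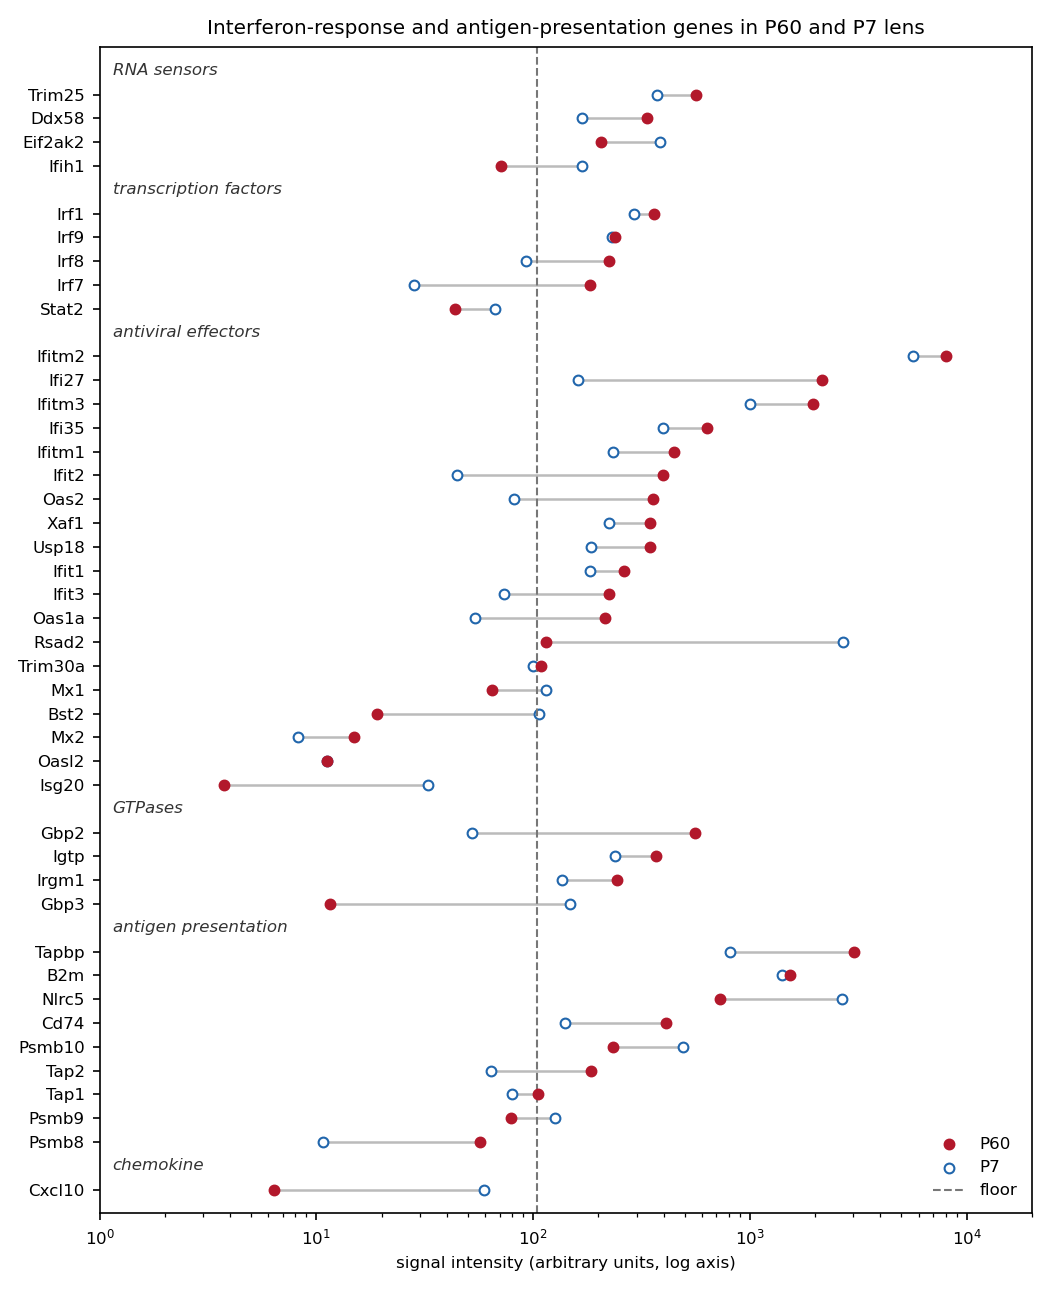
Signal intensity (arbitrary units, log axis) of each of the 42 genes with a probe set of its own, by role, at P60 (filled) and P7 (open), with the floor of 103.9 as a dashed line. Ifi27 and Rsad2 have the widest gaps, in opposite directions, of the genes that exceed the floor at P60 and at P7, and 6 genes lie left of the floor at both ages.

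The log2 ratio of P60 over P7 was taken with any value below the floor replaced by the floor, which makes such folds minimum sizes, marked by "at least". Calls of higher or lower required a difference of 2-fold or more. Of the 36 measured genes, 9 (25%) were at least 2-fold higher at P60, against 11.5% of all 13029 measured genes, and 3 (8.33%) were at least 2-fold lower, against 9.44%. Their ratio was above 0 in 27 of 36 (75%), against 51.2% of all measured genes. The median log2 ratio was 0.63, against 0.02 over all measured genes. Of the 9 higher genes, 6 were under the floor at P7, and over the 21 genes above the floor on both arrays 3 were higher and 3 lower (background 11.8% and 8.38%), with a median of 0.63. Of the 26 dim genes 6 were higher and 1 lower (background 7.48% and 8.77%).

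**Figure D2:**
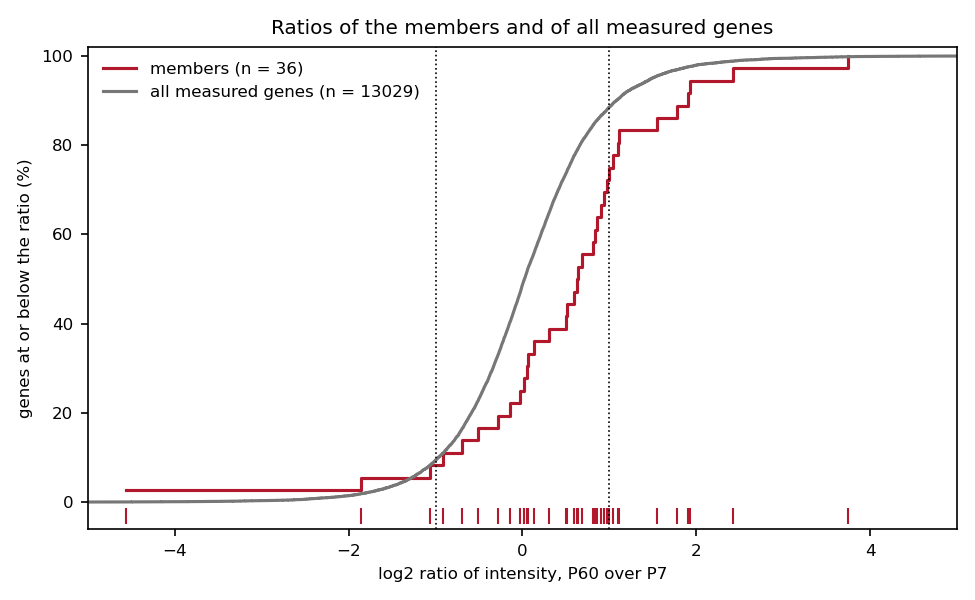
Cumulative share of genes (%) by log2 ratio of intensity, P60 over P7, for the 36 measured members (red, each also a tick) and for all 13029 measured genes (grey). Dotted lines mark 2-fold differences. The red curve runs right of the grey one through the middle of the range, with medians of 0.63 and 0.02, and its lowest step is Rsad2 at -4.56.

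As a guide to measurement error, probe sets for one gene that were above the floor on both arrays were compared. Their log2 ratios differed with a pooled SD of 0.58 over 4239 genes, which corresponds to 1.5-fold. This SD holds no biological spread and no spread between arrays of one age. It was not taken from probe sets under the floor on an array, such as those of members measured at 1 age only. By this guide 20 of the 36 genes were higher by more than this SD and 5 lower by more than it, against 22.7% and 20.1% of all measured genes. The 5′ probe set divided by the 3′ probe set, which reflects how complete the labelled RNA is, gave 0.606 at P60 and 0.785 at P7 for beta-actin, and 1.29 at P60 and 1.39 at P7 for Gapdh. For the dap spike-in it gave 0.0262 at P60 and 0.0995 at P7. The part of this difference in the ratios given here was not tested. The tissue label was checked on 7 lens markers, crystallin, membrane and beaded filament genes, whose intensities ran from 43365 to 79546 at P60 and from 45140 to 71167 at P7, with log2 ratios between -0.12 (Mip) and 0.20 (Crybb2).

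The sensors of viral RNA, listed with their partner gene Trim25, did not move together, and none of the 4 genes reached 2-fold. Ddx58, which encodes the RNA helicase RIG-I, had an intensity of 334 at P60 and 167 at P7, with a log2 ratio of 0.9986, just short of the 2-fold limit. Trim25, the ubiquitin ligase that activates RIG-I, had 564 at P60 and 373 at P7, a ratio of 0.60, and its other measured probe set gave 0.66. The remaining sensors read lower at P60. Ifih1, encoding the helicase MDA5, had 71.2 at P60, under the floor, and 168 at P7, at least 1.62-fold lower. Eif2ak2, encoding the kinase PKR that halts translation, had 205 at P60 and 387 at P7, a ratio of -0.92, but its other measured probe set gave 0.41, so its direction is unsettled.

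Among the transcription factors of the response, Irf8 and Irf7 had the highest ratios. Irf8, known mainly from myeloid and lymphoid cells, had 223 at P60 and 92.8 at P7, under the floor, at least 2.15-fold higher. Its other probe set went the opposite way, with 59.6 at P60 and 132 at P7. Irf7, which amplifies interferon production, had 182 at P60 and 28.1 at P7, at least 1.75-fold higher on its only probe set. Irf1 had 361 at P60 and 291 at P7, and Irf9, whose product binds the ISRE, had 240 at P60 and 232 at P7, ratios of 0.31 and 0.05. Stat2 stayed under the floor at both ages on the chosen probe set (43.8 at P60 and 67.0 at P7).

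The antiviral effectors held the widest spread, from -4.56 to 3.75 on the log2 scale over 16 measured genes, with a median of 0.79. At P60, 5 of the 16 were higher by 2-fold or more and 1 was lower, beside backgrounds of 11.5% and 9.44%. Of the 5 higher, 4 were under the floor at P7. Ifi27, an interferon-induced membrane protein, had 2156 at P60 and 160 at P7, 13.4-fold higher. Its other probe set gave 779 at P60 and 27.4 at P7, at least 7.50-fold higher, so both probe sets placed the adult lens far above the young one.

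The IFIT genes, whose products bind viral RNA that lacks host cap marks, lie together on chromosome 19 and all 3 had ratios above 0. Ifit2 had 396 at P60 and 44.5 at P7, at least 3.81-fold higher. Ifit3, its neighbour, had 225 at P60 and 73.7 at P7, at least 2.16-fold higher. Ifit1 had 262 at P60 and 183 at P7, a ratio of 0.52. Each rests on 1 probe set, and Ifit2 and Ifit3 were under the floor at P7.

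Of the oligoadenylate synthetases, which trigger RNA decay by RNase L, Oas2 had 356 at P60 and 81.9 at P7, at least 3.43-fold higher. Oas1a had 214 at P60 and 53.9 at P7, at least 2.06-fold higher, just inside the 2-fold limit. Oasl2, a related gene, was at 11.2 at both ages. Both measured synthetases exceeded the floor at P60 only.

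The IFITM genes, which block virus entry at membranes and sit next to each other on chromosome 7, were above the floor at both ages and read higher at P60 by less than 2-fold. Ifitm3 had 1962 at P60 and 1000.5 at P7, a ratio of 0.97. Ifitm1 had 445 at P60 and 233 at P7, a ratio of 0.93. Ifitm2 had 7986 at P60 and 5639 at P7, a ratio of 0.50. Their probes may share sequence, as the genes are close relatives, so the 3 values may not be independent.

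Rsad2 had the lowest ratio of the 36 measured genes and was the 1 effector called lower. It encodes viperin, an enzyme that makes a chain-terminating nucleotide and inhibits virus replication. The chosen probe set read 114 at P60 and 2694 at P7, 23.6-fold lower, and its P60 value lies close to the floor, so the fold is close to a bound. The other probe sets gave 171 at P60 and 1392 at P7, 8.16-fold lower, and 63.0 at P60, under the floor, and 1018 at P7, at least 9.80-fold lower. All 3 probe sets thus put Rsad2 at or above 1018 in the young lens and at or below 171 in the adult lens.

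Rsad2 lies on chromosome 12 beside Cmpk2, a nucleotide kinase gene that interferon induces together with it in other mouse cells. Cmpk2 had 106 at P60, just above the floor, and 78.5 at P7, under it, a ratio of 0.03. On the other side of Rsad2, Rnf144a, a ubiquitin ligase gene, had 196 at P60 and 375 at P7, a ratio of -0.93. The ISRE core shown above for Rsad2 is thus found before a gene that was lower at P60, as it is before Gbp2, which was higher.

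The other effectors had smaller differences. Usp18, which removes ISG15 and dampens receptor signalling, had 344 at P60 and 185 at P7, a ratio of 0.90. Ifi35, which binds other interferon-induced proteins, had 634 at P60 and 395 at P7, a ratio of 0.68, and its other probe sets gave 0.75 and 1.39. Xaf1, a pro-apoptotic gene, had 347 at P60 and 223 at P7, a ratio of 0.64. These 3 genes were above the floor at both ages.

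Bst2, Mx1 and Trim30a were close to the floor or under it at both ages, so their log2 ratios of -0.03, -0.14 and 0.07 show only that neither age stood well above the floor. Bst2, encoding tetherin, which holds budding virus at the cell surface, had 19.0 at P60 and 106 at P7. Mx1, a dynamin-like GTPase that is defective in most laboratory mouse strains, had 64.9 at P60 and 114 at P7. Trim30a had 109 at P60 and 100.3 at P7. Of the remaining effectors Isg20, an exonuclease, and Mx2 stayed under the floor at both ages with 3.74 and 14.9 at P60 and 32.9 and 8.25 at P7.

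The GTPases that interferon-gamma induces were split within one gene cluster. Gbp2, a guanylate-binding protein that coats vacuoles of pathogens, had 559 at P60 and 52.1 at P7, under the floor, at least 5.38-fold higher, and its other probe set gave 447 at P60 and 41.6 at P7, at least 4.30-fold higher. Gbp3, in the same cluster on chromosome 3, had 11.6 at P60, under the floor, and 148 at P7, at least 1.42-fold lower. Gbp7, the gene on the other side of Gbp3, had 117 at P60 and 381 at P7, 3.27-fold lower. Guanylate-binding genes are close relatives whose transcripts an array may not fully separate, so the opposite signs hold for the probe sets as annotated.

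Among the immunity-related GTPases, which disrupt the same kind of vacuole, Irgm1 had 244 at P60 and 135 at P7, a ratio of 0.85. Igtp had 370 at P60 and 240 at P7, a ratio of 0.63. Irgm2, the neighbour of Igtp on chromosome 11, had 281 at P60 and 72.4 at P7, under the floor, at least 2.71-fold higher. All 3 read higher at P60.

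The antigen-presentation genes differed in both directions, with 2 of 8 measured genes called higher (25%, background 11.5%), 2 called lower (25%, background 9.44%) and a median of 0.07. With so few genes, these shares rest on 2 genes each. Tapbp, encoding tapasin, which bridges MHC class I to the peptide transporter, had 3034 at P60 and 807 at P7, 3.76-fold higher. Its other probe set gave 208 at P60 and 113 at P7, a ratio of 0.88. Cd74, the invariant chain that guides MHC class II, had 409 at P60 and 140 at P7, 2.93-fold higher on its only probe set.

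Nlrc5, the transactivator of MHC class I genes, went the other way with 730.5 at P60 and 2650 at P7, 3.63-fold lower on 1 probe set. Psmb10, a catalytic subunit of the immunoproteasome, had 235 at P60 and 491 at P7, 2.09-fold lower. The other immunoproteasome subunits were near or under the floor, Psmb9 with 79.2 at P60 and 126 at P7, and Psmb8 with 57.1 at P60 and 10.7 at P7. Of their constitutive counterparts, Psmb5 had 5468 at P60 and 15110 at P7, 2.76-fold lower. Psmb6 was 2.11-fold lower, and Psmb7 did not reach 2-fold, with a ratio of -0.70.

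Of the genes of the MHC class I light chain and the peptide transporter, only B2m could read lower or higher at P60. Tap1 and Tap2 were under the floor at P7 on their chosen probe sets, so they could not read lower. B2m, the MHC class I light chain, had 1538 at P60 and 1401 at P7, a ratio of 0.13, and its other probe set gave 0.04. Tap2, a subunit of the peptide transporter, had 186 at P60 and 64.2 at P7, under the floor, at least 1.79-fold higher. Tap1, its partner, sat at the floor with 105 at P60 and 80.1 at P7. Tap1 and Psmb9 are read away from each other from a common stretch, and 275 of the 300 bases of their promoter windows are shared. The chemokine gene Cxcl10, a common marker of an acute interferon response, had 6.37 at P60 and 59.4 at P7, under the floor at both ages.

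Where a gene had several measured probe sets, they mostly agreed in direction. Among the 11 members with 2 or more, 7 had every ratio on 1 side of 0. The exceptions were Irf8, Eif2ak2, Tap1 and Trim30a, the last 2 of which had ratios within 0.17 of 0.

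**Figure D3:**
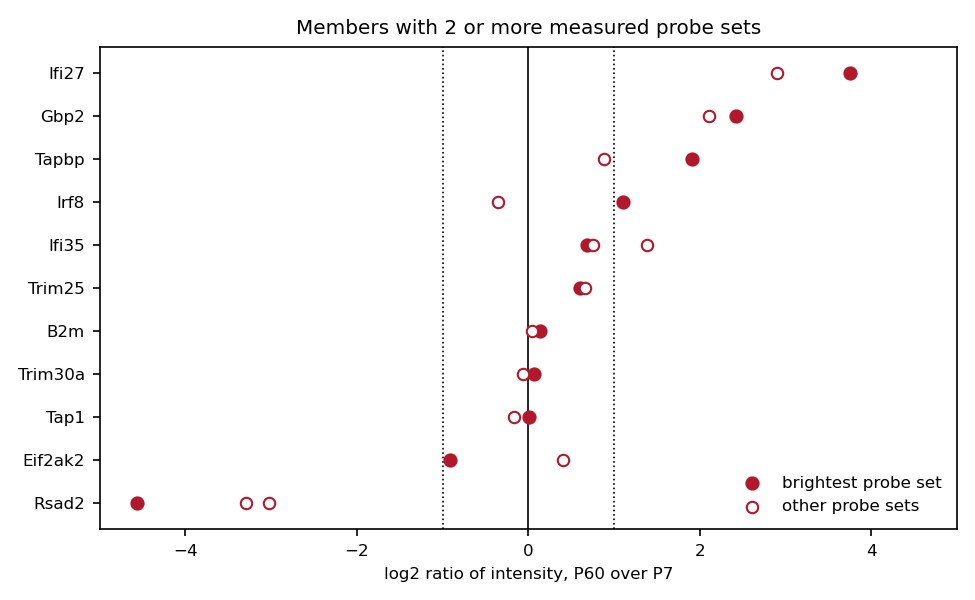
Log2 ratio of intensity, P60 over P7, for each measured probe set of the 11 members that have 2 or more, with the brightest filled and the others open. Dotted lines mark 2-fold differences. Every measured probe set of Ifi27 and Gbp2 lies above 2 and every one of Rsad2 lies below -3, while Irf8 and Eif2ak2 have probe sets on both sides of 0.

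Genes with and without the ISRE core had the same counts of calls. Of the 16 measured genes with the core in a promoter window, 3 were called higher and 1 lower, and their median log2 ratio was 0.51, beside backgrounds of 11.5% and 9.44%. Of the 13 without it, 3 were higher and 1 lower, with a median of 0.64. The remaining 7 measured genes, among them Ifi27, Nlrc5, Cd74 and Oas2, had no entry in the promoter set. For the GAS core, 9 measured genes with a match had a median of 0.68, with 3 called higher and none lower. The 20 without a match had a median of 0.51, with 3 higher and 2 lower, beside the same backgrounds.

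On the chosen probe sets, the receptors and signalling genes upstream of the response had a median log2 ratio of 0.17. Of 13 measured, 1 (7.69%) was at least 2-fold higher, beside a background of 11.5%, and none was lower, beside 9.44%. The type I receptor genes Ifnar1 and Ifnar2 had ratios of 0.17 and -0.10, with the other measured probe sets of Ifnar2 at 0.52 and -0.18. The interferon-gamma receptor genes Ifngr1 and Ifngr2 had ratios of 0.51 and -0.26, but the other probe set of Ifngr2 gave 0.69, so the direction of Ifnar2 and Ifngr2 is unsettled. Stat3, a signal transducer shared with interleukin-6, had 1615 at P60 and 500.4 at P7, 3.23-fold higher, with its other measured probe sets at 0.82 and -0.54. Jak2, a kinase of the interferon-gamma receptor, had a ratio of 0.78, with its other probe set at 0.15, and Socs1, the feedback inhibitor, had 77.8 at P60 and 121 at P7. Jak1 had a ratio of 0.19, but its other probe sets gave 0.67 and 1.08.

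Interferon genes with a probe set of their own gave little signal. Of 8 ligand genes with a probe set of their own, 2 exceeded the floor on 1 array each, Ifna1 with 109 at P60 and 59.3 at P7, and Ifnb1 with 48.9 at P60 and 138 at P7. Ifng had 3.97 at P60 and 36.9 at P7. A probe set shared by 9 type I interferon genes, left out of the counts, read 288 at P60 and 55.0 at P7, while another for the same genes read 121 at P60 and 137 at P7. Genes for sensors and adaptors outside the member list had a median of 0.30. Of 14 measured, 1 (7.14%, background 11.5%) was at least 2-fold higher and none was lower (background 9.44%). The higher gene was the RNA-editing enzyme gene Adar (833 at P60 and 414 at P7, 2.01-fold, its other measured probe set at -0.33). Mavs had a ratio of 0.47, and its other probe set gave 1.40.

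A further list of 40 genes that interferons induce in mouse cells, apart from the members, had 23 measured genes, of which 6 (26.1%) were at least 2-fold higher and 2 (8.70%) lower, beside backgrounds of 11.5% and 9.44%. Its median log2 ratio was 0.42. Lgals3bp, a secreted glycoprotein, was the highest with 796 at P60 and 211 at P7, 3.78-fold higher. Gbp7 was the lowest, with its other probe set at -1.38. Trim21, an antibody receptor in the cytosol, was 3.07-fold higher with its other probe set at 0.90, and Ifi30, a lysosomal thiol reductase used in antigen processing, had 1619 at P60 and 725 at P7, 2.23-fold higher. Rtp4, the other lower gene, had 112 at P60 and 249 at P7, 2.22-fold lower. The list was chosen with results of these arrays known and is no independent support.

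Classical MHC class I genes were measured on probe sets prone to cross-hybridisation. H2-K1 had 773 at P60 and 595 at P7 on the chosen probe set, a ratio of 0.38, and its other measured probe sets ran from -0.04 to 2.13. H2-D1 had 679 at P60 and 371 at P7, a ratio of 0.87, with others at 0.39 and 0.70. H2-Q10 had 27.8 at P60, under the floor, and 170 at P7, at least 1.64-fold lower, and none of 5 measured class I genes reached 2-fold. Of the loading genes, Erap1, an aminopeptidase that trims peptides, had 292 at P60 and 138 at P7, 2.12-fold higher, with its other probe set at 1.08. The proteasome activator gene Psme3 was 2.24-fold higher, with its other measured probe set at 1.01. Psme1, the interferon-inducible activator, had a ratio of 0.47.

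On the chosen probe sets, the 3 measured genes of the MHC class II list read lower at P60, with a median log2 ratio of -0.27. Of the 3, 1 (33.3%) was at least 2-fold lower (background 9.44%) and none was higher (background 11.5%). Dimmer probe sets of H2-Ab1 and H2-Aa read higher at P60. H2-Eb1, a beta chain, had 255 at P60 and 624 at P7, 2.45-fold lower, and H2-Ab1 had 113 at P60 and 136 at P7, a ratio of -0.27. The other measured probe set of H2-Ab1 went the opposite way, with 122 at P60 and 61.1 at P7, a ratio of 0.24. H2-Aa was under the floor at both ages on its chosen probe set, with 73.7 at P60 and 34.1 at P7, while a dimmer one read 236 at P60 and 2.48 at P7. Ciita, the class II transactivator, had 97.5 at P60 and 88.0 at P7, under the floor. Ctss, the protease that trims the invariant chain, had a ratio of -0.20.

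Markers of leukocytes, which could carry Cd74, Irf8 and class II transcripts, did not read higher at P60 as a list. Of 17 with a probe set, 11 were measured. None was at least 2-fold higher (background 11.5%) and 1 was lower (background 9.44%). The lower gene was Fcer1g, with 97.4 at P60 and 218 at P7, at least 2.10-fold. The median log2 ratio of the 11 was -0.23. Of these, 5 were above the floor at P7 only and could not read higher, and 1 was above it at P60 only. The summed intensity of the 17 was 1828 at P60 and 2344 at P7. The defining markers Ptprc (33.09 at P60 and 31.98 at P7), Aif1 and Itgam were under the floor at both ages, as were Cd68, Cd52 and Cd53. Above the floor at both ages were Csf1r (429 at P60 and 420 at P7), Laptm5 (325 at P60 and 396 at P7), Adgre1 (149 at P60 and 178 at P7), C1qa (127 at P60 and 149 at P7) and C1qc (113 at P60 and 126 at P7). The other measured probe sets of Csf1r gave ratios of 0.39 and -0.77, so its direction is unsettled, and that of Laptm5 gave -0.20. Lyz2 had 146 at P60 and 82.3 at P7. The part of leukocytes in the values of Cd74, Irf8 and the class II genes was not tested.

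Markers of vascular endothelium, a cell type that expresses many interferon-induced genes, were lower at P60. Of 11 with a probe set 9 were measured. Of the 9, 6 (66.7%) were at least 2-fold lower (background 9.44%) and none was higher (background 11.5%). However, 6 of the 9 were above the floor at P7 only and could not read higher, and 5 of the 6 lower folds are bounds. The summed intensity of the 11 was 1128 at P60 and 4216 at P7. Cldn5, a tight junction gene, had 70.4 at P60, under the floor, and 1086 at P7, at least 10.5-fold lower, and Erg, a transcription factor of endothelium, had the highest ratio at 0.04. Rsad2, Nlrc5 and Psmb10 were lower in the same pool, and the part of vessels in their values was not tested. Of the corneal epithelium markers Krt12 and Krt15 were under the floor at both ages. Aldh3a1, an enzyme gene abundant in cornea, had 18639 at P60 and 62.6 at P7, under the floor, at least 179-fold higher. The other corneal markers did not reach 2-fold on their chosen probe sets. Krt5 had a ratio of 0.21, and Krt14 had 0.23, which is a bound. Upk1b had 0.01, with its other probe sets from -0.04 to 0.80. The part of cornea in the higher genes was not tested.

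**Figure D4:**
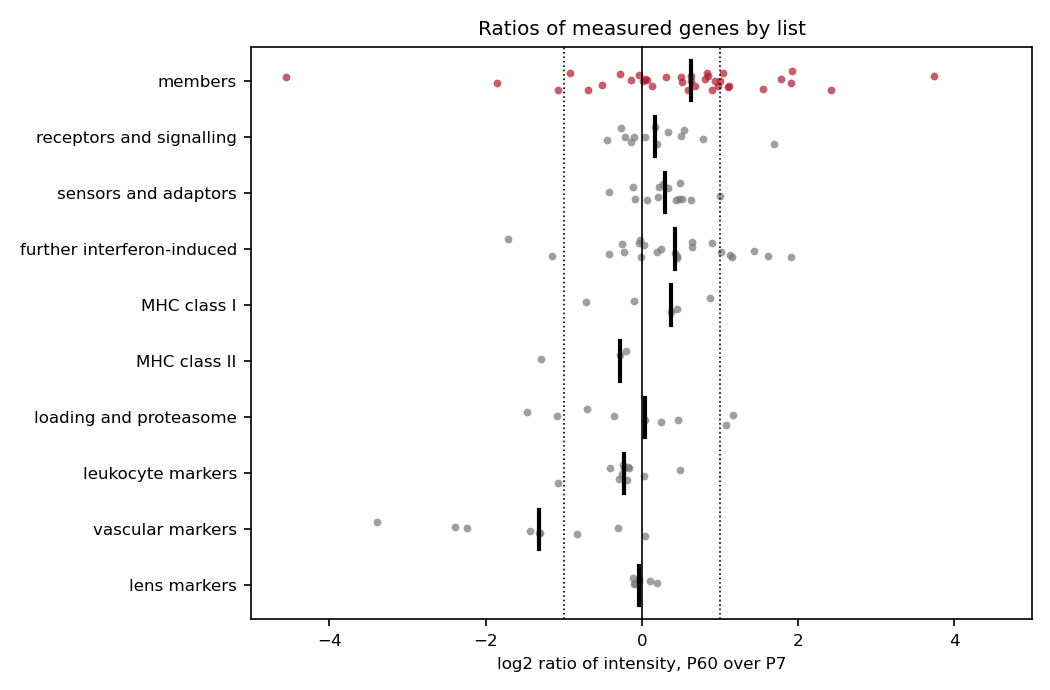
Log2 ratio of intensity, P60 over P7, of each measured gene by list, with the list's median as a black bar and 2-fold differences as dotted lines. The members (median 0.63) and the further interferon-induced genes (0.42) have medians above 0, receptors and signalling (0.17) and lens markers (-0.04) lie closer to 0, and leukocyte (-0.23) and vascular markers (-1.32) lie below it.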

How the data were processed

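Lenses of each age were pooled, and biotin-labelled total RNA went onto 1 mouse array an age, per the labels' protocols. The authors deposited 1 linear signal intensity per probe set, 45101 in all. MAS5 is the tool listed per the submitters' processing notes, and the sources used here do not state its settings or detection calls. The mean intensity, leaving out 2% of probe sets at each end, was 500.0 on both arrays. With so few arrays, precision is limited by their number.

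A platform annotation gave 1 symbol to 34958 probe sets, several to 932 and none to 9211. By gene number, 34754 of the first kind were linked to a mouse gene of the current RefSeq table. The floor is the median over both arrays together. Every measured member is named. In other lists, genes past 2-fold are named, or the highest and lowest where more than 4 or none pass, and some others were chosen after their values were seen. The members and lists were chosen with earlier results of these data known. Ratios were computed with Python 3.11.15, numpy 2.4.6 and pandas 2.3.3, and the calculation was tested on simulated data. Alternatives were other floors, a pseudocount of 32, other scalings, other choices of probe set and other fold limits.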

Additional observations from a re-analysis of the deposited data

How the results depend on the processing

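No paired analysis was possible because each age has 1 array, and leaving out a replicate was likewise not possible. The count of 9 members at least 2-fold higher at P60 depended on the floor and on the fold limit. It was 3 of 27 (11.1%, background 11.3%) with the floor at 2 times the median, where Gbp2, Ifi27 and Tapbp remained, and 3 of 21 (14.3%, background 11.8%) when only genes above the floor on both arrays were used, an alternative chosen after seeing the data. It was 20 at a 1.5-fold limit (background 22.7%) and 5 at a 3-fold limit (background 4.23%). The count of 3 lower genes was 5 at a 1.5-fold limit (background 20.1%) and 5 over all 42 genes with no filter and a pseudocount of 32 (background 12.8%), where 12 were higher (background 10.4%). With that pseudocount and the filter kept, 4 were lower, and Psmb10 was among neither the 4 nor the 5. The members' median log2 ratio ran from 0.50 to 0.65 over the 10 alternatives with a 2-fold limit. Ifi27 was called higher and Rsad2 and Nlrc5 lower in 10 of those 10, Gbp2, Tapbp and Cd74 were called higher in 9, and Irf8 in 5. On the dimmest measured probe sets Irf8 reversed, to -0.35, and Eif2ak2, which was not called, changed sign to 0.41. The cause was not tested. Of the single-gene ratios under the 10 alternatives with a 2-fold limit, 305 moved by less than the SD of 0.58, 23 moved by more and 1 reversed. Genes not measured under an alternative were not counted there. Genes with 1 probe set keep their ratio when the choice of probe set changes, so the 305 overstate how stable the ratios are. Irf9, Tap1 and Trim30a, with ratios near 0, also changed sign under some alternatives. Values near the floor limit most of the ratios given as bounds.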

Other observations

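Probe sets shared by several genes were left out of the counts. The 1 that covers Isg15, the ubiquitin-like protein attached to other proteins after interferon, together with Gm9706, read 19.1 at P60 and 147 at P7. One shared by Gbp8 and Gbp4 read 5.13 at P60 and 102.4 at P7, and one shared by Tgtp2 and Tgtp1 read 6.13 at P60 and 63.4 at P7. One shared by Mndal, Ifi211, Ifi205 and Ifi204 read 165 at P60 and 81.3 at P7.

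Beside the IFIT cluster on chromosome 19 lies Ch25h, which makes the antiviral oxysterol 25-hydroxycholesterol. It had 214 at P60 and 41.8 at P7, under the floor, a log2 ratio of 1.04, which is a bound. Ifit1bl1, an IFIT relative within the cluster, had 394 at P60 and 430 at P7. Ifit1bl2, another relative there, had 59.2 at P60, under the floor, and 165 at P7, a ratio of -0.67, which is a bound. Lipa, the lysosomal lipase gene between Ch25h and Ifit2, had a ratio of 0.14.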
